A study of Arabidopsis thaliana with 12 samples.

Results

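Jasmonate is a lipid hormone that plastids and peroxisomes make from linolenic acid and that leaves are best known to use against wounding, chewing insects and some pathogens. A 13-lipoxygenase oxygenates linolenic acid, allene oxide synthase (AOS) and allene oxide cyclase (AOC) turn the product into the precursor OPDA, and a reductase, a CoA ligase and β-oxidation in the peroxisome make jasmonate of it. Joined to isoleucine by JAR1, the hormone binds the F-box protein COI1 together with a JAZ repressor, the repressor is degraded, and MYC2, MYC3 and MYC4 are freed to switch on their targets, among which are synthesis genes and the JAZ genes themselves. The genes described here are 35 loci taken from these steps by their place in the pathway, with earlier results of these data known. They comprise the lipoxygenases LOX2 (AT3G45140), LOX3 (AT1G17420), LOX4 (AT1G72520) and LOX6 (AT1G67560), then AOS (AT5G42650), AOC1 (AT3G25760), AOC2 (AT3G25770), AOC3 (AT3G25780) and AOC4 (AT1G13280), and then OPR3 (AT2G06050), OPCL1 (AT1G20510) and ACX1 (AT4G16760). Hormone conjugation and turnover are represented by JAR1 (AT2G46370), CYP94B3 (AT3G48520), CYP94C1 (AT2G27690) and JMT (AT1G19640), perception and transcription by COI1 (AT2G39940), MYC2 (AT1G32640), MYC3 (AT5G46760) and MYC4 (AT4G17880), and the outputs by VSP1 (AT5G24780), VSP2 (AT5G24770) and CORI3 (AT4G23600). The repressors are JAZ1 (AT1G19180), JAZ2 (AT1G74950), JAZ3 (AT3G17860), JAZ4 (AT1G48500), JAZ5 (AT1G17380), JAZ6 (AT1G72450), JAZ7 (AT2G34600), JAZ8 (AT1G30135), JAZ9 (AT1G70700), JAZ10 (AT5G13220), JAZ11 (AT3G43440) and JAZ12 (AT5G20900). All 35 were found among the 27827 probe sets, 1 for each locus.

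Transcripts were measured on 12 Arabidopsis Gene 1.1 ST arrays, 3 in each of 4 groups: dcl1-9 dark, dcl1-9 light, WT dark and WT light. WT is Columbia (Col-0), and dcl1-9 is a weak T-DNA allele of DCL1, the enzyme that cuts miRNA precursors, first found in Wassilewskija and then backcrossed to Col-0, with homozygotes picked from segregating progeny by their phenotype. In every group, leaves 5 to 7 of plants aged 4 to 5 weeks were cut off and floated on water for 6 h at 22 °C, either in darkness that began 2 h after lights on or in light of 100 µE, so wounding by detachment was common to all groups. The labels name 3 biological replicates per group and do not say which leaves or plants were pooled. The values are the authors' normalized intensities, in linear units without a detection call. Where 3 values follow each other they are replicates 1, 2 and 3, and differences are dark minus light or dcl1-9 minus WT on the log2 scale, from a limma fit to all 12 arrays with p-values adjusted over all probe sets and a threshold of 0.05. Since each array averages a whole leaf sample, fewer cells of a type and less RNA per cell cannot be told apart.

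The labelled tissue was checked against its markers. The leaf markers RBCS1A and CA1, of carbon fixation, read 3020.4 to 3255 and 1650.0 to 1827 in dcl1-9 dark leaves, 3385 to 3590.3 and 1836 to 2260.2 in dcl1-9 light leaves, 2313 to 2993 and 1159 to 1626 in WT dark leaves, and 3198 to 3837 and 1789 to 2538 in WT light leaves. LHCB1.1, a light-harvesting protein, read only 5.17 to 11.7 on the 12 arrays. Of the flower markers AG, AP1 and PI, PI read 81.6, 32.4 and 84.7 in WT dark leaves, against 7.02, 9.03 and 6.26 in WT light leaves and 5.30 to 13.6 in dcl1-9, and the 2 root markers summed to 18.7 to 36.8 on all arrays. The DCL1 probe set read 51.5 to 67.4 in dcl1-9 dark, 36.5 to 48.3 in dcl1-9 light, 21.3 to 26.6 in WT dark and 17.1 to 21.4 in WT light leaves, and it does not check the genotype labels, because the sources used here do not say which side of the insertion the probes cover.

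Darkness lowered the transcripts of most steps of jasmonate synthesis in both genotypes. In dcl1-9 dark against dcl1-9 light leaves 19 of the 35 genes were lower and 2 higher, where 12.9% of all probe sets were lower and 10.8% higher. In WT dark against WT light leaves 15 were lower and 3 higher, where 14.5% of all probe sets were lower and 12.8% higher. The median difference of the 35 genes was -0.57 in dcl1-9 and -0.41 in WT leaves, while the median of all probe sets was 0.06 in both. All 15 genes that fell in the WT also fell in dcl1-9, and the 2 that rose in dcl1-9, ACX1 and JAZ11, also rose in the WT. The means compared share no array, but both tests use a spread estimated from all 12 arrays, so the calls are not independent. The 17 genes are 81.0% of the 21 called in dcl1-9 and 94.4% of the 18 called in the WT. Over all probe sets 5374 were called in both, 81.4% of the 6598 called in dcl1-9 and 70.6% of the 7612 called in the WT. Across the 35 genes the 2 sets of differences had a Pearson correlation of 0.92 and a Spearman correlation of 0.87, against 0.86 and 0.75 across all probe sets. The points of each correlation come from the same 12 arrays, and genes are not independent replicates.

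**Figure D1:**
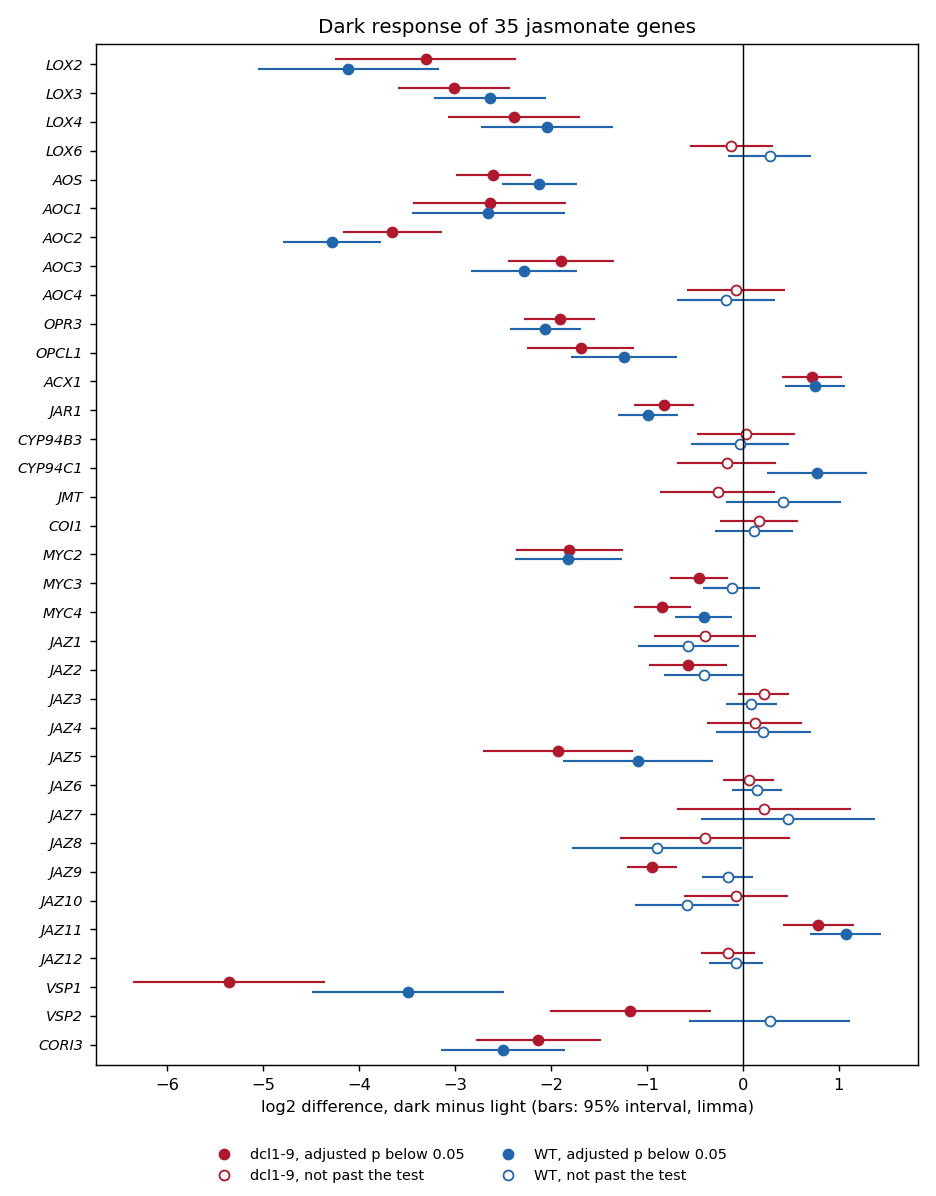
Log2 difference, dark minus light, of the 35 jasmonate genes in dcl1-9 leaves (red) and WT leaves (blue), with 95% intervals from limma. Filled points passed the test. The synthesis genes from LOX2 to OPCL1 lie well left of 0 in both genotypes, other than LOX6 and AOC4, which lie near 0. VSP1 lies farthest left in dcl1-9, and most JAZ genes lie near 0.

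The lipoxygenases split in their response. LOX2, which makes most of the jasmonate of wounded leaves, read 266, 578 and 212 in dcl1-9 dark leaves, against 3296, 3322 and 2882 in dcl1-9 light leaves. LOX2 in the WT read 49.0, 197 and 51.8 in darkness, against 1350.2, 1699 and 1129 in light. The dark and light arrays of each genotype lay far apart, by a difference of -3.30 (SE 0.44, limma adjusted p = 6.36e-05) in dcl1-9 and -4.11 (SE 0.44, adjusted p = 6.45e-06) in the WT, or 8.99-fold and 14.0-fold lower by the group means. Replicate 2 was the highest dark array in both genotypes.

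LOX3 and LOX4, a pair of enzymes known from male fertility and from the wounded leaf, fell as well. LOX3 read 55.8, 76.7 and 56.3 in dcl1-9 dark leaves, against 613, 568 and 359 in dcl1-9 light leaves, a difference of -3.01 (SE 0.27, adjusted p = 1.8e-06). LOX3 in WT leaves read 34.9, 37.2 and 31.3 in darkness, against 230.2, 313 and 135 in light, a difference of -2.63 (SE 0.27, adjusted p = 4.69e-06). No dark array of LOX3 reached the lowest light array of either genotype. LOX4 read 39.6, 58.7 and 31.6 in dcl1-9 dark leaves, against 216, 257 and 188 in dcl1-9 light leaves. WT leaves had LOX4 values of 27.9, 39.3 and 35.04 in darkness, against 113, 257 and 91.8 in light. The LOX4 groups did not overlap in either genotype, with differences of -2.38 in dcl1-9 (adjusted p = 7.1e-05) and -2.04 in the WT (adjusted p = 0.000213). LOX6, known for early jasmonate production under stress, did not pass the test in either genotype. It read 134, 145 and 115 in dcl1-9 dark leaves, against 115, 175 and 142 in dcl1-9 light leaves, and 92.4, 95.1 and 65.6 in WT dark leaves, against 71.4, 79.5 and 56.9 in WT light leaves. These dark and light arrays overlapped, and the intervals of the difference were -0.55 to 0.31 in dcl1-9 and -0.15 to 0.71 in the WT.

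AOS, a single gene in Arabidopsis that commits the pathway to OPDA, read 228, 267 and 181 in dcl1-9 dark leaves, against 1606, 1414 and 1085 in dcl1-9 light leaves. In WT leaves AOS read 148, 188 and 133 in darkness, against 641, 664 and 715 in light. The fall was -2.60 (SE 0.18, adjusted p = 1.79e-07) in dcl1-9 and -2.12 (SE 0.18, adjusted p = 8.21e-07) in the WT, with no overlap.

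Of the AOC genes, AOC1, AOC2 and AOC3 fell and AOC4 did not pass the test. AOC1 read 38.3, 64.0 and 45.0 in dcl1-9 dark leaves, against 248, 367 and 293 in dcl1-9 light leaves, and 14.8, 33.5 and 8.99 in WT dark leaves, against 132, 76.5 and 109.8 in WT light leaves. AOC2 read 15.8, 18.6 and 20.2 in dcl1-9 dark leaves, against 204, 225 and 258 in dcl1-9 light leaves, and 4.60, 7.89 and 5.45 in WT dark leaves, against 136, 79.8 and 135 in WT light leaves. AOC3 read 41.6, 42.9 and 36.8 in dcl1-9 dark leaves, against 147, 213 and 108 in dcl1-9 light leaves, and 12.5, 15.0 and 11.7 in WT dark leaves, against 55.4, 92.0 and 49.8 in WT light leaves. Dark and light arrays stayed apart for all of AOC1, AOC2 and AOC3 in both genotypes. AOC1 differed by -2.64 in dcl1-9 and -2.65 in the WT, AOC2 by -3.65 and -4.28, and AOC3 by -1.89 and -2.28, with adjusted p at most 0.000102. With log2(value + 16) the WT differences were -2.57 for AOC2 and -1.46 for AOC3, both past the test. AOC4 averaged 358 ± 46.5 in dcl1-9 dark and 391 ± 129 in dcl1-9 light leaves, and 236 ± 42.6 in WT dark and 267 ± 52.4 in WT light leaves (SD, n = 3 each), and its arrays overlapped. AOC1, AOC2 and AOC3 are neighbours on the chromosome and close relatives in sequence, so how far their probe sets tell them apart was not tested.

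In the peroxisomal steps, OPR3, the OPDA reductase, read 53.7, 63.3 and 52.3 in dcl1-9 dark leaves, against 201, 253 and 187 in dcl1-9 light leaves, a difference of -1.91 (SE 0.17, adjusted p = 1.68e-06). OPR3 in WT leaves read 46.0, 52.7 and 38.1 in darkness, against 168, 200.3 and 198 in light, a difference of -2.06 (SE 0.17, adjusted p = 6.51e-07). Both gaps were far wider than the replicate spread. OPCL1, which activates the reduced precursor with CoA, read 141, 153 and 100.4 in dcl1-9 dark leaves, against 468, 476 and 328 in dcl1-9 light leaves. OPCL1 in the WT read 121, 124 and 76.2 in darkness, against 253, 339 and 175 in light. Again no dark array reached a light array, and the differences were -1.69 in dcl1-9 (adjusted p = 0.000214) and -1.24 in the WT (adjusted p = 0.00205). ACX1, an acyl-CoA oxidase that opens β-oxidation of the precursor and of other acyl chains, went the other way, with 509 ± 45.2 in dcl1-9 dark against 309 ± 27.5 in dcl1-9 light leaves, and 379.7 ± 46.5 in WT dark against 226 ± 29.98 in WT light leaves (SD, n = 3 each). Its rises of 0.72 (adjusted p = 0.00187) and 0.75 (adjusted p = 0.00113) did not overlap.

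**Figure D2:**
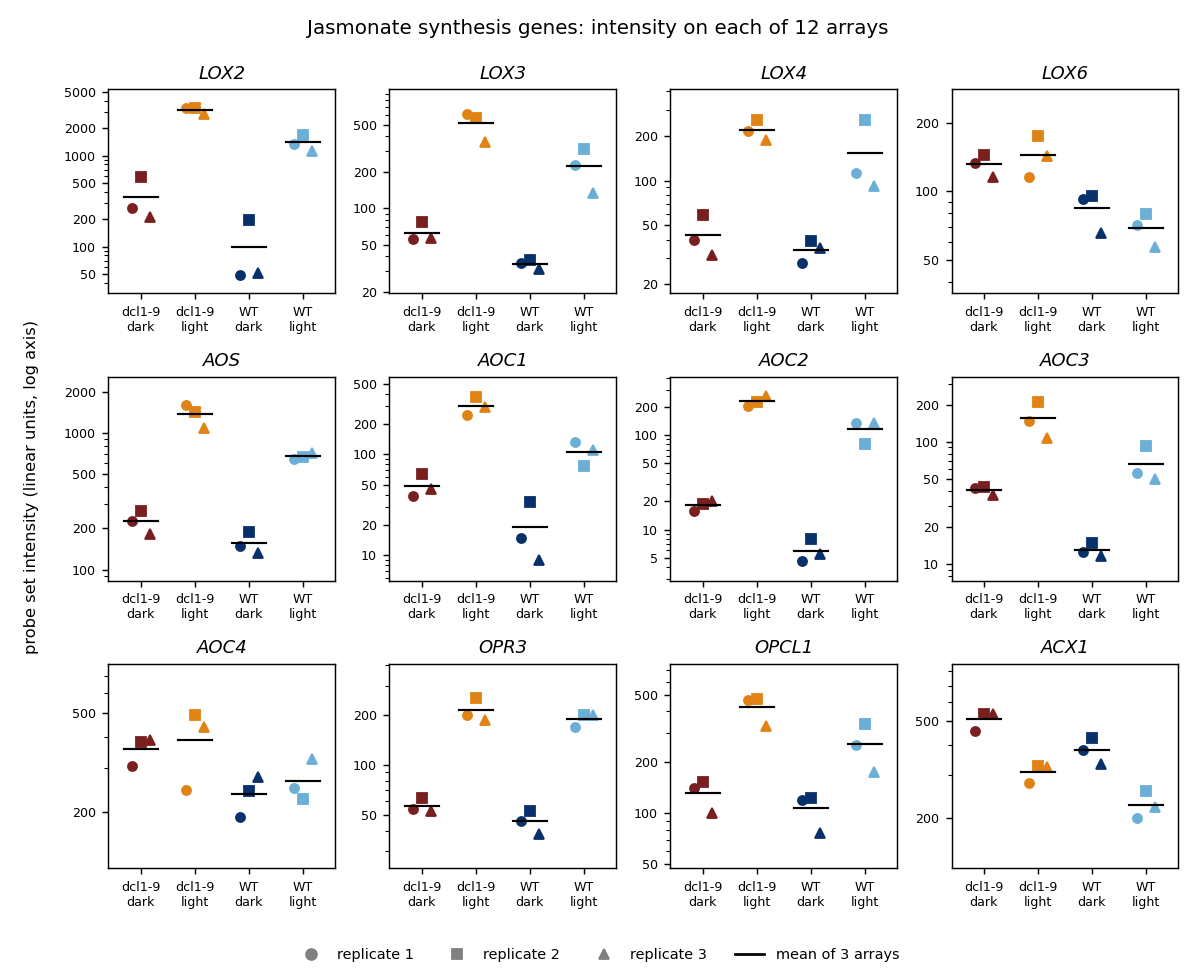
Probe set intensity (linear units, log axis) of the 12 synthesis genes on each array, by group from dcl1-9 dark to WT light. Marker shapes are replicates 1 to 3 and lines are means of 3 arrays. Dark arrays of LOX2, LOX3, LOX4, AOS, AOC1, AOC2, AOC3, OPR3 and OPCL1 lie below the light arrays of the same genotype, those of ACX1 above, and those of LOX6 and AOC4 overlap.

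Among the genes of conjugation and turnover, JAR1, which makes the active isoleucine conjugate, averaged 283 ± 17.3 in dcl1-9 dark and 499.8 ± 39.7 in dcl1-9 light leaves, and 176 ± 27.5 in WT dark and 348 ± 39.4 in WT light leaves (SD, n = 3 each). It fell by 0.82 in dcl1-9 (adjusted p = 0.000733) and by 0.99 in the WT (adjusted p = 0.000126). CYP94B3, which hydroxylates the conjugate and so inactivates it, read 79.5, 81.2 and 65.6 in dcl1-9 dark leaves, against 79.7, 76.3 and 65.1 in dcl1-9 light leaves, and 29.8, 37.7 and 46.1 in WT dark leaves, against 33.8, 57.1 and 28.7 in WT light leaves. Its dark and light arrays overlapped in both genotypes, with intervals of -0.48 to 0.55 and -0.54 to 0.48. CYP94C1, which oxidizes the conjugate further, averaged 41.2 ± 6.90 in dcl1-9 dark and 46.1 ± 5.03 in dcl1-9 light leaves, and 55.9 ± 5.61 in WT dark and 34.4 ± 14.6 in WT light leaves (SD, n = 3 each). CYP94C1 rose by 0.77 in the WT (SE 0.24, adjusted p = 0.0273), where replicate 2 in light overlapped the dark arrays, and the call was lost without WT dark replicate 1 or 2 or WT light replicate 1 or 3, with adjusted p of 0.0704 to 0.126. JMT, which makes the volatile methyl ester, averaged 13.6 ± 4.65 in dcl1-9 dark, 15.6 ± 0.972 in dcl1-9 light, 20.0 ± 2.85 in WT dark and 15.3 ± 4.95 in WT light leaves (SD, n = 3 each), with overlap throughout.

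COI1, the receptor, averaged 139 ± 30.7 in dcl1-9 dark and 123 ± 14.7 in dcl1-9 light leaves, and 165 ± 34.5 in WT dark and 150.3 ± 4.27 in WT light leaves (SD, n = 3 each). It passed no test, and the intervals of its dark difference were -0.24 to 0.57 in dcl1-9 and -0.29 to 0.52 in the WT. MYC2, the bHLH factor with the broadest set of jasmonate targets, read 13.3, 16.7 and 23.6 in dcl1-9 dark leaves, against 53.8, 65.6 and 64.3 in dcl1-9 light leaves. MYC2 in the WT read 13.6, 8.82 and 17.8 in darkness, against 52.3, 39.0 and 45.8 in light. The fall was alike in size, -1.81 (SE 0.26, adjusted p = 0.000122) in dcl1-9 and -1.82 (SE 0.26, adjusted p = 9.26e-05) in the WT, and no arrays overlapped. With log2(value + 16) the MYC2 differences were -1.197 and -1.08, both past the test. MYC4, a close relative, averaged 125 ± 11.4 in dcl1-9 dark and 223 ± 14.8 in dcl1-9 light leaves, and 142 ± 16.4 in WT dark and 188 ± 12.5 in WT light leaves (SD, n = 3 each). It fell by 0.84 in dcl1-9 (adjusted p = 0.000422) and by 0.41 in the WT (adjusted p = 0.0407), and the WT call was lost without any 1 of 8 arrays. Of these, 5 were WT arrays (dark replicates 2 and 3 and every light replicate) and the others were dcl1-9 dark replicate 1 and dcl1-9 light replicates 2 and 3, with adjusted p of 0.0508 to 0.129. MYC3, the other relative, averaged 123 ± 0.943 in dcl1-9 dark and 169 ± 15.9 in dcl1-9 light leaves, and 136 ± 16.9 in WT dark and 148 ± 9.57 in WT light leaves (SD, n = 3 each). MYC3 fell by 0.46 in dcl1-9 (adjusted p = 0.028), a call lost without any dcl1-9 dark array or without dcl1-9 light replicate 2 or 3, with adjusted p of 0.0583 to 0.115.

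Of the outputs, VSP1 and CORI3 fell with the synthesis genes in both genotypes, while VSP2 did not pass the test in the WT. VSP1, a vegetative storage protein of leaves with acid phosphatase relatives, read 20.5, 33.0 and 12.0 in dcl1-9 dark leaves, against 845, 1246 and 529.7 in dcl1-9 light leaves. VSP1 in WT leaves read 7.66, 19.8 and 7.10 in darkness, against 202, 106 and 71.9 in light. The difference was -5.36 (SE 0.47, adjusted p = 1.33e-06) in dcl1-9, 40.0-fold by the means, and -3.49 (SE 0.47, adjusted p = 5.11e-05) in the WT, where dark replicates 1 and 3 read 7.66 and 7.10. With log2(value + 16) the WT difference was -2.30 (adjusted p = 0.000136), and whether the lowest WT dark values of VSP1 lay above background was not tested. CORI3, a cystine lyase named for its induction by the jasmonate mimic coronatine, read 294, 296 and 156 in dcl1-9 dark leaves, against 1179, 1113 and 867 in dcl1-9 light leaves. WT leaves had CORI3 values of 80.5, 175 and 98.2 in darkness, against 685, 809 and 455 in light. Neither genotype had overlapping arrays, and CORI3 differed by -2.13 in dcl1-9 (adjusted p = 0.00011) and by -2.50 in the WT (adjusted p = 2.03e-05). VSP2, the neighbouring gene and close paralog of VSP1, read 2.95, 3.51 and 3.67 in dcl1-9 dark leaves, against 7.53, 8.23 and 7.01 in dcl1-9 light leaves, and 3.49, 3.99 and 6.98 in WT dark leaves, against 7.68, 2.54 and 2.78 in WT light leaves. It fell by 1.17 in dcl1-9 (adjusted p = 0.0422) but lost the call without any array of that comparison or without WT dark replicate 2, with adjusted p of 0.0502 to 0.118, and with log2(value + 16) its difference was -0.28. With VSP2 at 2.54 to 8.23 on the 12 arrays, whether its probe set measured the gene above background was not tested.

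**Figure D3:**
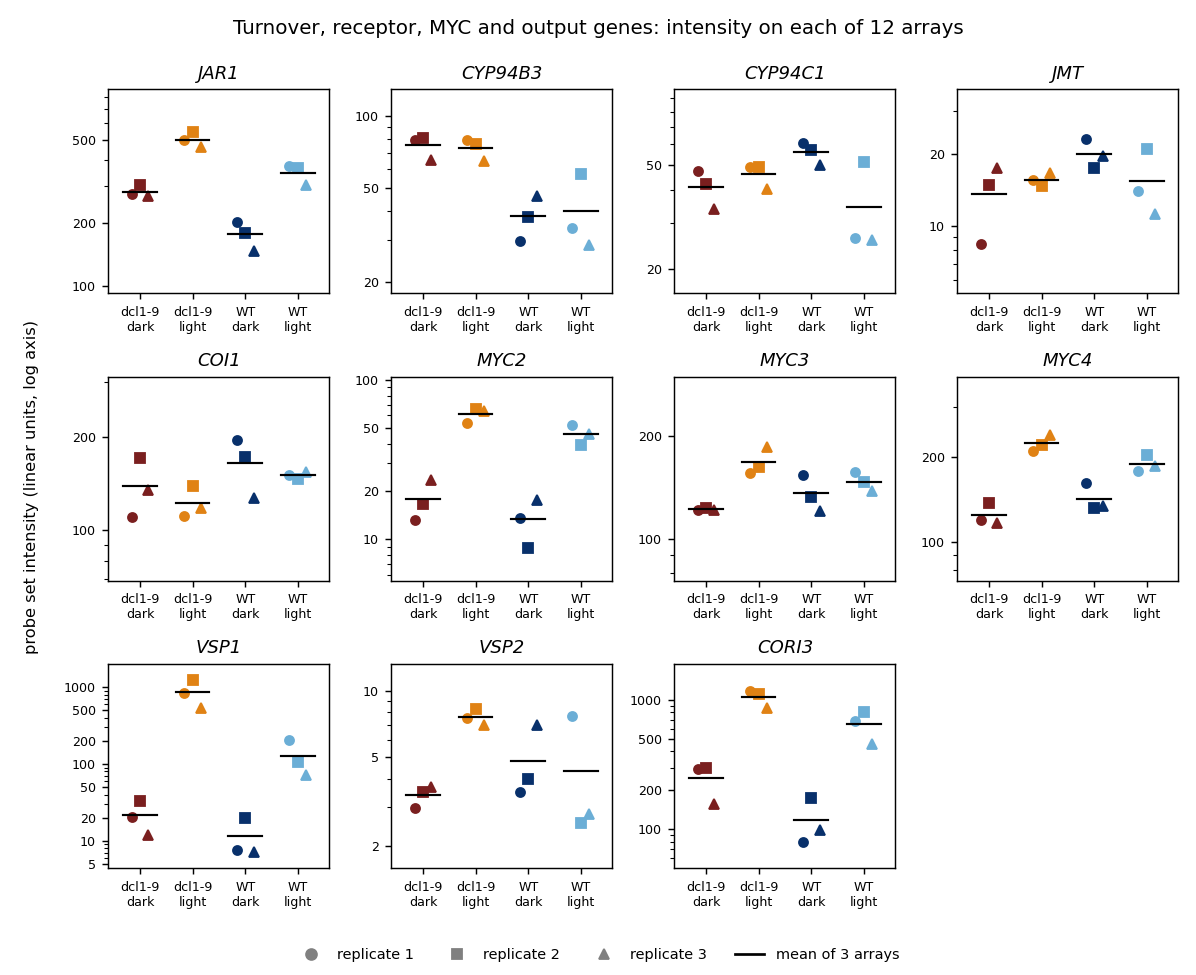
Probe set intensity (linear units, log axis) of the turnover genes, COI1, the MYC genes and the outputs on each array, by group from dcl1-9 dark to WT light. Marker shapes are replicates 1 to 3 and lines are means of 3 arrays. VSP1, CORI3, MYC2 and JAR1 are lower in dark than in light leaves of both genotypes, COI1 and CYP94B3 overlap between dark and light, and CYP94B3 is higher on every dcl1-9 array than on any WT array.

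Of the 12 JAZ genes, 3 fell with darkness in dcl1-9 leaves, 1 rose and 8 did not pass the test, where 12.9% of all probe sets were lower and 10.8% higher. In WT leaves 1 fell, 1 rose and 10 did not pass, where 14.5% of all probe sets were lower and 12.8% higher, so the WT counts were near the shares of all probe sets. The JAZ genes were not tested against the synthesis genes. JAZ5 had the largest fall of the family. It read 22.2, 18.1 and 16.1 in dcl1-9 dark leaves, against 112, 65.7 and 48.6 in dcl1-9 light leaves, a difference of -1.93 (SE 0.37, adjusted p = 0.00117). JAZ5 in WT leaves read 16.4, 13.7 and 14.9 in darkness, against 33.9, 56.6 and 17.0 in light, a difference of -1.09 (SE 0.37, adjusted p = 0.0369). The WT groups nearly touched, at 16.4 and 17.0, and the WT call was lost without any WT dark array or without WT light replicate 1 or 2, with adjusted p of 0.0669 to 0.165. The WT difference of JAZ5 was -0.68 without WT light replicate 2 and -0.67 with log2(value + 16). JAZ11 rose, with 179, 207 and 209 in dcl1-9 dark leaves, against 103, 125 and 117 in dcl1-9 light leaves, a difference of 0.79 (SE 0.17, adjusted p = 0.00333). In the WT JAZ11 read 148, 169.6 and 179 in darkness, against 79.0, 97.9 and 62.7 in light, a difference of 1.07 (SE 0.17, adjusted p = 0.000244). JAZ11 and ACX1 were the genes of the 35 that rose in both genotypes, and neither had overlapping arrays.

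JAZ9, one of the repressors with a full degron, read 605, 558 and 688 in dcl1-9 dark leaves, against 1261, 1203 and 1092 in dcl1-9 light leaves, a difference of -0.95 (SE 0.12, adjusted p = 4.93e-05). JAZ9 in WT leaves read 761, 851 and 715 in darkness, against 903, 905 and 791 in light, a difference of -0.16 (SE 0.12, adjusted p = 0.39). The dcl1-9 groups did not overlap and the WT groups did. JAZ2 read 269.5, 281 and 234 in dcl1-9 dark leaves, against 412, 411 and 345 in dcl1-9 light leaves, and 186, 264 and 201 in WT dark leaves, against 284, 374 and 218 in WT light leaves. It fell by 0.57 in dcl1-9 (adjusted p = 0.0412), a call lost without any dcl1-9 dark array, without dcl1-9 light replicate 1 or 2 or without WT light replicate 1, with adjusted p of 0.0561 to 0.144, while the WT groups overlapped. JAZ1, the closest relative of JAZ2, read 397, 375 and 259 in dcl1-9 dark leaves, against 537, 449 and 363 in dcl1-9 light leaves, and 101, 176 and 123 in WT dark leaves, against 169, 264 and 160.1 in WT light leaves. JAZ1 overlapped between dark and light in both genotypes, and its differences of -0.39 and -0.57 did not pass the test.

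JAZ10, whose splice forms include some that escape degradation, read 121, 87.5 and 99.5 in dcl1-9 dark leaves, against 135, 91.7 and 98.6 in dcl1-9 light leaves, and 33.2, 50.6 and 55.1 in WT dark leaves, against 65.2, 94.1 and 50.5 in WT light leaves. The array values do not separate splice forms, and dark and light arrays overlapped. JAZ7 and JAZ8, which lack the canonical degron, did not pass a test either. JAZ7 read 59.6, 49.4 and 58.8 in dcl1-9 dark leaves, against 57.6, 43.5 and 44.0 in dcl1-9 light leaves, and 22.2, 68.2 and 70.0 in WT dark leaves, against 27.6, 67.7 and 21.4 in WT light leaves. JAZ8 read 17.9, 12.0 and 17.5 in dcl1-9 dark leaves, against 29.0, 14.0 and 21.1 in dcl1-9 light leaves, and 2.66, 10.9 and 6.84 in WT dark leaves, against 9.15, 12.8 and 10.99 in WT light leaves. Both genes overlapped between dark and light, and the WT spread of JAZ7 was wide.

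JAZ3, JAZ4, JAZ6 and JAZ12 passed no test in any comparison. JAZ3 read 357, 378 and 398 in dcl1-9 dark leaves, against 364, 296 and 317 in dcl1-9 light leaves, and 305, 335 and 298 in WT dark leaves, against 288, 305 and 287 in WT light leaves. JAZ4, in the same subgroup, read 17.1, 20.0 and 17.9 in dcl1-9 dark leaves, against 15.6, 17.0 and 17.8 in dcl1-9 light leaves, and 21.4, 35.5 and 22.7 in WT dark leaves, against 26.0, 16.5 and 25.7 in WT light leaves. The dark and light arrays of both overlapped in each genotype. In darkness every dcl1-9 array of JAZ3 lay above every WT array, and every dcl1-9 array of JAZ4 lay below every WT array. JAZ6 read 714, 730.1 and 684 in dcl1-9 dark leaves, against 691, 706 and 645 in dcl1-9 light leaves, and 645, 699 and 532 in WT dark leaves, against 577, 586 and 526 in WT light leaves. JAZ12 read 423, 369 and 481 in dcl1-9 dark leaves, against 420.1, 488 and 507 in dcl1-9 light leaves, and 460.3, 417 and 479 in WT dark leaves, against 473, 467 and 488 in WT light leaves. The intervals of the dark difference were narrow for both, -0.20 to 0.32 and -0.12 to 0.41 for JAZ6 and -0.44 to 0.12 and -0.36 to 0.20 for JAZ12, in dcl1-9 and in the WT.

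**Figure D4:**
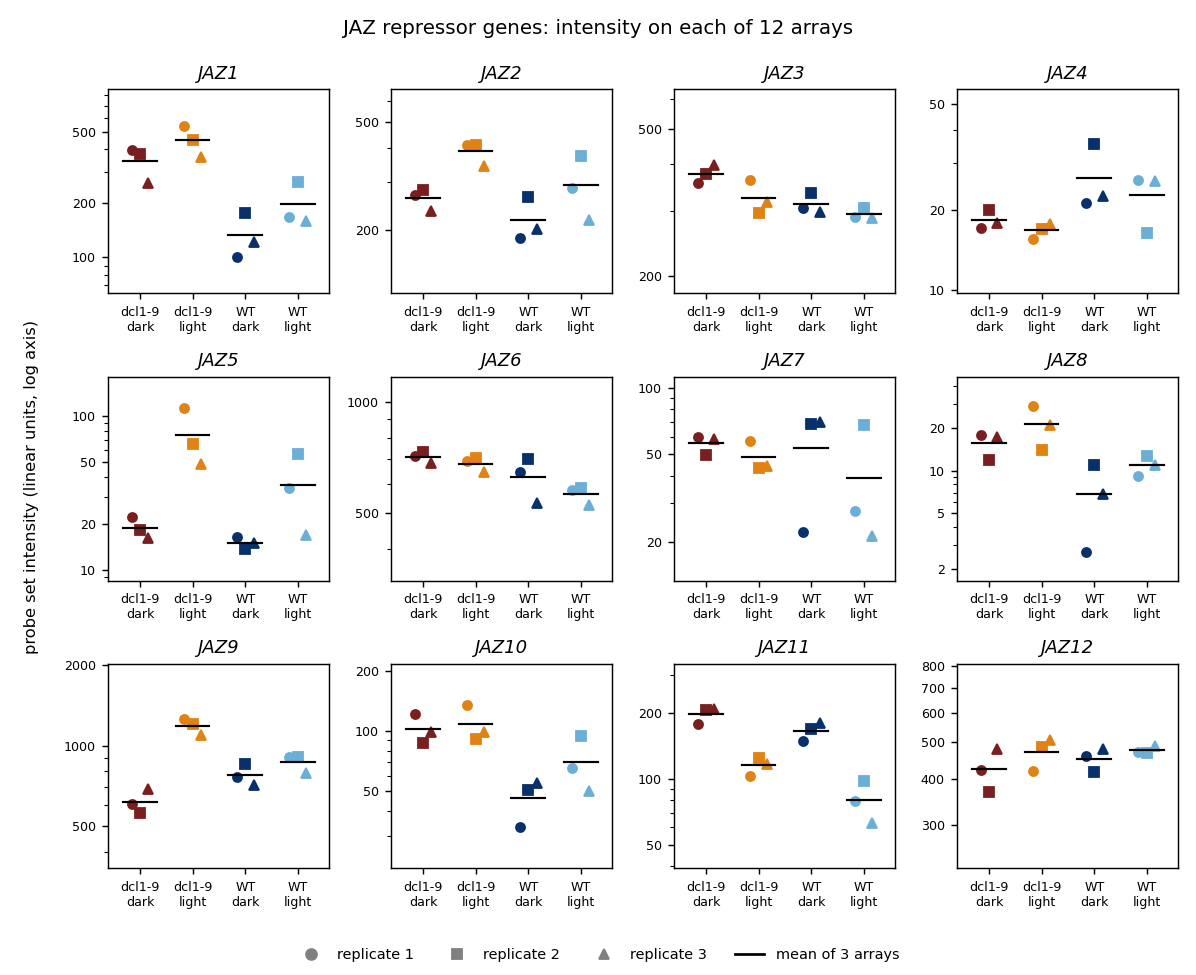
Probe set intensity (linear units, log axis) of the 12 JAZ genes on each array, by group from dcl1-9 dark to WT light. Marker shapes are replicates 1 to 3 and lines are means of 3 arrays. JAZ5 is lower and JAZ11 higher in dark than in light leaves of both genotypes, JAZ9 is lower in dcl1-9 dark leaves, and JAZ1 is higher in dcl1-9 than in WT leaves.

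With the leaves kept in light, the jasmonate genes that differed between the genotypes were all higher in dcl1-9. In dcl1-9 light against WT light leaves 11 of 35 were higher and 0 lower, where 5.92% of all probe sets were higher and 3.33% lower, and 22 of the 35 had an unadjusted limma p under 0.05, as did 28.2% of all probe sets. The median of all probe sets stood at -0.14 here and at -0.12 in darkness, so differences between genotypes are given relative to it, while SE and adjusted p belong to the unshifted difference. The median of the 35 genes was 0.68 on that scale and 0.55 unshifted. Among probe sets with a mean of at least 20 the median was -0.04 in light and -0.03 in darkness. The shift thus depends on the probe sets counted, and it would be smaller with the brighter ones. Leaving out an array moved the count, to 4 without dcl1-9 light replicate 2, 4 without WT light replicate 3 and 17 without WT light replicate 2.

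VSP1 was the gene that differed most. It averaged 874 ± 359 in dcl1-9 light and 127 ± 67.7 in WT light leaves (SD, n = 3 each), 6.90-fold by the means and 2.97 relative to all probe sets (SE 0.47, adjusted p = 0.00328), and kept its call with each array left out. AOS averaged 1368 ± 264 in dcl1-9 light and 673 ± 38.1 in WT light leaves (SD, n = 3 each), 1.14 relative to all probe sets (adjusted p = 0.00533). LOX6 averaged 144 ± 30.2 in dcl1-9 light and 69.3 ± 11.5 in WT light leaves (SD, n = 3 each), 1.19 relative to all probe sets (adjusted p = 0.00753). AOS and LOX6 kept their calls with each array left out too, and no dcl1-9 light array of these genes overlapped a WT light array.

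The other synthesis genes higher in dcl1-9 light leaves were LOX3 and the AOC genes other than AOC4. LOX3 averaged 514 ± 135 in dcl1-9 light and 226 ± 89.3 in WT light leaves (SD, n = 3 each), 1.37 relative to all probe sets (adjusted p = 0.0149). AOC1 averaged 303 ± 60.3 against 106 ± 27.7, AOC2 229 ± 27.7 against 117 ± 32.1 and AOC3 156 ± 53.1 against 65.7 ± 22.9 (dcl1-9 light against WT light, SD, n = 3 each). Relative to all probe sets they stood at 1.67, 1.14 and 1.38 (adjusted p = 0.0226, 0.0208 and 0.0107). Each of these calls was lost without some arrays: LOX3 without dcl1-9 light replicate 1 or 2 or WT light replicate 3, AOC1 without replicate 2 or 3 of either group, AOC2 without dcl1-9 light replicate 2 or 3 or WT light replicate 2, and AOC3 without dcl1-9 light replicate 2 or WT light replicate 3, with adjusted p of 0.051 to 0.0837. LOX2 averaged 3166 ± 247 in dcl1-9 light and 1393 ± 287 in WT light leaves (SD, n = 3 each) without overlap, yet its adjusted p was 0.0956. LOX2 passed without WT dark replicate 2 (limma adjusted p = 0.0227). It also passed under some alternatives given below: the compared groups alone, a replicate block and the methods' lower bound of the fold-change. Under the other alternatives LOX2 did not pass. OPR3, at 213 ± 34.7 in dcl1-9 light and 189 ± 17.9 in WT light leaves (SD, n = 3 each), differed by 0.31 relative to all probe sets (unshifted interval -0.20 to 0.54, adjusted p = 0.529).

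JAR1 was 0.66 and CYP94B3 1.08 above all probe sets in dcl1-9 light leaves (adjusted p = 0.0385 and 0.0272), so the genes that make and inactivate the active conjugate were both higher. Of the repressors, JAZ1 averaged 449.8 ± 87.3 in dcl1-9 light and 198 ± 57.4 in WT light leaves (SD, n = 3 each), 1.34 relative to all probe sets (adjusted p = 0.0102), and JAZ9 averaged 1185 ± 85.9 in dcl1-9 light and 866 ± 64.8 in WT light leaves (SD, n = 3 each), 0.59 relative to all probe sets (adjusted p = 0.0349). JAR1 lost its call without any dcl1-9 light array, without dcl1-9 dark replicate 1 or 2 or without WT light replicate 1 or 3, CYP94B3 and JAZ9 lost theirs without dcl1-9 light replicate 1 or 2 or WT light replicate 1 or 3, and JAZ1 lost it without WT light replicate 3, with adjusted p of 0.0504 to 0.147. COI1 and the 3 MYC genes did not pass the test. MYC2, at 61.2 ± 6.45 in dcl1-9 light and 45.7 ± 6.61 in WT light leaves (SD, n = 3 each), did not overlap, with an interval of -0.13 to 0.98 before the shift.

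In darkness the same direction held for the genes that passed. In dcl1-9 dark against WT dark leaves 9 of 35 were higher and 0 lower, where 4.45% of all probe sets were higher and 3.02% lower, 19 of the 35 had an unadjusted limma p under 0.05 (26.1% of all probe sets did), and the median of the 35 was 0.44 relative to all probe sets. The count fell to 3 without dcl1-9 dark replicate 1, to 4 without dcl1-9 dark replicate 2 or without WT dark replicate 1, and to 5 without WT dark replicate 3. AOC2 averaged 18.2 ± 2.22 in dcl1-9 dark and 5.98 ± 1.71 in WT dark leaves (SD, n = 3 each), 1.76 relative to all probe sets (SE 0.24, adjusted p = 0.0016). AOC3 averaged 40.4 ± 3.24 in dcl1-9 dark and 13.1 ± 1.69 in WT dark leaves (SD, n = 3 each), also 1.76 (SE 0.26, adjusted p = 0.00263). JAZ1 averaged 344 ± 74.6 in dcl1-9 dark and 133 ± 38.8 in WT dark leaves (SD, n = 3 each), 1.504 relative to all probe sets (SE 0.25, adjusted p = 0.00566). AOC2, AOC3 and JAZ1 did not overlap between the genotypes in darkness and kept their calls with each array left out. With log2(value + 16), the unshifted differences were 0.64 for AOC2 and 0.96 for AOC3, against 1.64 and 1.63 with log2 of the value, and both remained past the test (adjusted p = 0.0341 and 0.0153).

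LOX2 averaged 352 ± 197 in dcl1-9 dark and 99.3 ± 84.7 in WT dark leaves (SD, n = 3 each), 2.13 relative to all probe sets (SE 0.44, adjusted p = 0.0154). Its groups were close, since replicate 2 in the WT read 197 and replicate 3 in dcl1-9 read 212. AOC1 stood at 1.67 (0.93 unshifted with log2(value + 16), against 1.54 with log2 of the value), JAR1 at 0.81, CYP94B3 at 1.13, JAZ10 at 1.29 and CORI3 at 1.22 relative to all probe sets (adjusted p = 0.0237, 0.013, 0.022, 0.0143 and 0.0419). The arrays of CORI3 overlapped between the genotypes and those of the other 4 did not. These calls were less steady. LOX2 and AOC1 lost theirs without dcl1-9 dark replicate 1 or 2 or WT dark replicate 1 or 3, JAR1 without dcl1-9 dark replicate 1 or 2 or WT dark replicate 3, CYP94B3 without dcl1-9 dark replicate 1 or 2 or WT dark replicate 1, and JAZ10 without replicate 1 of either group, with adjusted p of 0.0536 to 0.101. CORI3 lost its call without any 1 of 6 arrays, which were the 4 named for LOX2, dcl1-9 light replicate 2 and WT light replicate 1, with adjusted p of 0.0543 to 0.18. JAZ8, at 15.8 ± 3.27 in dcl1-9 dark and 6.82 ± 4.15 in WT dark leaves (SD, n = 3 each), had an adjusted p of 0.0519. VSP1, at 21.8 ± 10.6 in dcl1-9 dark and 11.5 ± 7.15 in WT dark leaves, overlapped, with an interval of -0.03 to 1.97 before the shift (adjusted p = 0.203). JAZ4, JAZ9 and CYP94C1 were lower on every dcl1-9 dark array than on any WT dark array, without passing the test. LOX3, LOX6, AOC4, ACX1, JAZ3 and JAZ8 were higher on every dcl1-9 dark array than on any WT dark array, also without passing. How many of all probe sets stood apart in this way was not counted.

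**Figure D5:**
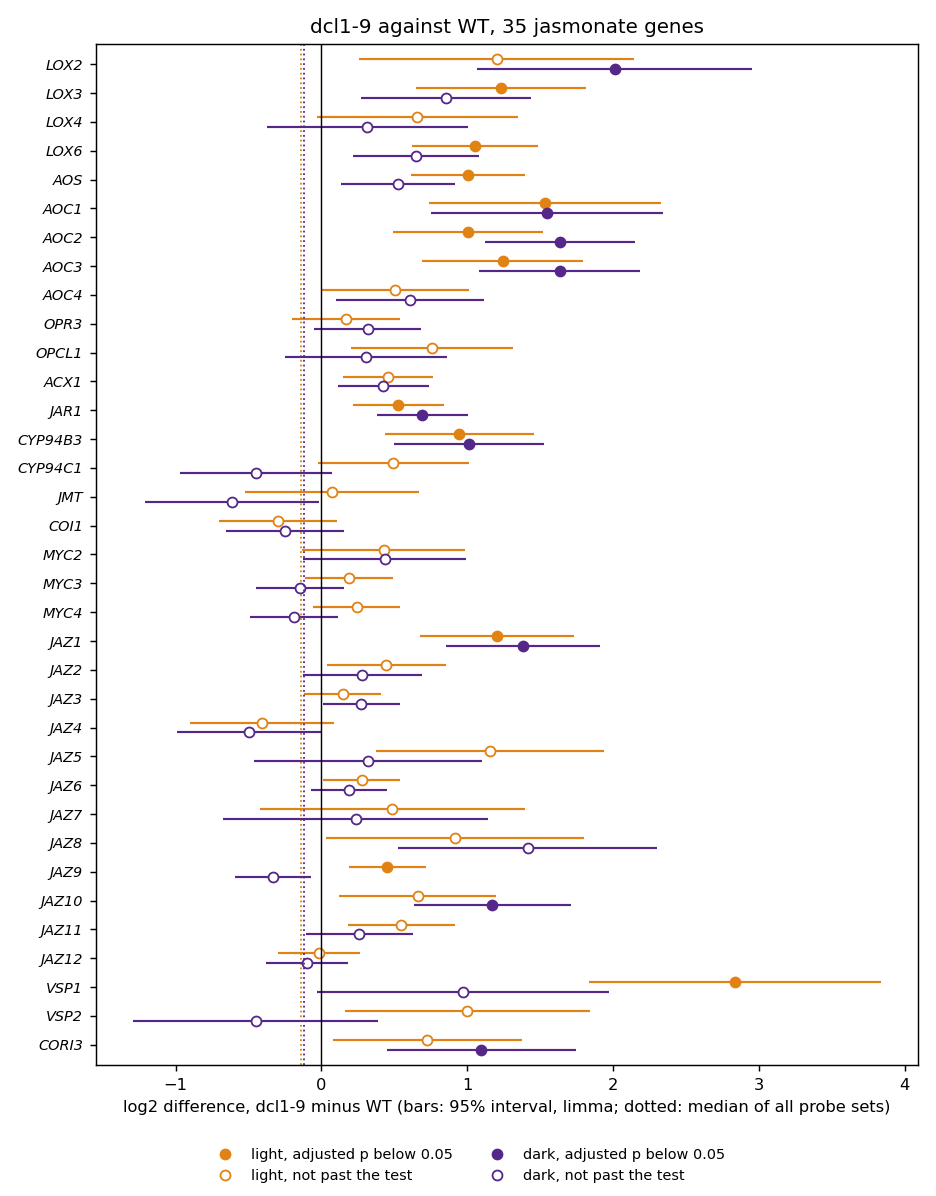
Log2 difference, dcl1-9 minus WT, of the 35 jasmonate genes in light (orange) and in darkness (purple), with 95% intervals from limma. Filled points passed the test and dotted lines mark the median of all probe sets. AOC1, AOC2, AOC3, JAR1, CYP94B3 and JAZ1 passed in both, VSP1 lies farthest right in light, and no gene passed to the left of 0.

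The light and dark comparisons of the genotypes share no array, and 6 genes were higher in both, AOC1, AOC2, AOC3, JAR1, CYP94B3 and JAZ1. They were 54.5% of the 11 higher in light and 66.7% of the 9 higher in darkness, where 783 of all probe sets were higher in both, 47.5% of the 1647 higher in light and 63.2% of the 1238 higher in darkness. The shares of the jasmonate genes lay close to these. CYP94B3 and JAZ1 were among these 6 although darkness changed neither beyond the test in either genotype. In all, 26 of the 35 genes passed at least 1 comparison, and the 9 that passed none were AOC4, JMT, COI1, JAZ3, JAZ4, JAZ6, JAZ7, JAZ8 and JAZ12.

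The difference of the dark responses, dcl1-9 minus WT, asks whether darkness acted on a gene unequally in the genotypes. By limma, 0 of the 35 genes passed higher and 0 lower, where 0.0144% of all probe sets passed higher and 0.0898% lower, and 5 of the 35 had an unadjusted p under 0.05, as did 5.73% of all probe sets. These 5 were JAZ9 at -0.79 (95% interval -1.16 to -0.41, adjusted p = 0.136), VSP1 at -1.86 (-3.28 to -0.45, adjusted p = 0.612), CYP94C1 at -0.94 (-1.68 to -0.21, adjusted p = 0.64), VSP2 at -1.45 (-2.64 to -0.26, adjusted p = 0.692) and MYC4 at -0.43 (-0.85 to -0.01, adjusted p = 0.855). The steeper fall of VSP1, the fall of JAZ9 in dcl1-9 alone and the rise of CYP94C1 in the WT alone were therefore not shown to differ between the genotypes. The intervals of the 35 differences were 1.46 wide at the median, from 0.740 for the narrowest to 2.83 for the widest, and 19 of them reached beyond 1 in at least 1 direction.

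The level of many genes also varied with the replicate. Replicate 2 held the highest value of its group for 20 of the 35 genes in dcl1-9 dark, 17 in dcl1-9 light, 20 in WT dark and 23 in WT light leaves, where it did so for 40.7%, 37.6%, 32.0% and 45.9% of all probe sets. The median coefficient of variation of the 35 genes was 13.0% in dcl1-9 dark, 12.0% in dcl1-9 light, 18.4% in WT dark and 23.8% in WT light leaves, and it reached 85.4% for LOX2 in WT dark leaves. In WT light leaves replicate 2 was the highest of its group for every JAZ gene other than JAZ4 and JAZ12.

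A wider set of 69 jasmonate genes that are not among the 35 was read from lists of named genes. The counts in these lists stand beside the shares of all probe sets, which with darkness were 12.9% lower and 10.8% higher in dcl1-9 and 14.5% lower and 12.8% higher in the WT, and between genotypes 5.92% higher and 3.33% lower in light and 4.45% higher and 3.02% lower in darkness. Of 19 other synthesis genes, 5 fell and 3 rose in darkness in each genotype, 26.3% and 15.8% of the list. FAD8, a plastid desaturase that supplies linolenic acid, averaged 39.2 ± 2.104 in dcl1-9 dark and 278 ± 32.3 in dcl1-9 light leaves, and 35.4 ± 7.55 in WT dark and 214 ± 62.7 in WT light leaves (SD, n = 3 each), with differences of -2.82 and -2.58. HPL1, the hydroperoxide lyase that draws on the same fatty acid hydroperoxides as AOS, differed by -2.08 in dcl1-9 (adjusted p = 1.22e-05). ACX4 and ACX2, acyl-CoA oxidases for short and long chains, rose like ACX1. ACX4 averaged 389 ± 55.4 in dcl1-9 dark and 87.7 ± 28.4 in dcl1-9 light leaves, and 408 ± 21.1 in WT dark and 67.6 ± 12.2 in WT light leaves (SD, n = 3 each), and ACX2 rose by 3.12 in the WT (adjusted p = 6.53e-07). KAT5, a thiolase, differed by -2.61 in dcl1-9 and -1.96 in the WT. In light LOX1, ACX2, OPR1 and PXA1 of this list were higher in dcl1-9 than in WT leaves and 0 lower, and in darkness FAD3 was higher and 0 lower. Each of these calls was lost without at least 1 array: LOX1 without any 1 of 8 (every dcl1-9 light and WT light array, dcl1-9 dark replicate 1 and WT dark replicate 1), ACX2 without dcl1-9 light replicate 2 or 3 or WT light replicate 1 or 3, OPR1 without dcl1-9 light replicate 1 or 3 or WT light replicate 3, PXA1 without any dcl1-9 light array or WT light replicate 3, and FAD3 without dcl1-9 dark replicate 1, with adjusted p of 0.0511 to 0.136.

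Of 11 other genes of turnover and transport, 2 rose and 2 fell in darkness in each genotype, 18.2% of the list each way, and 4 were higher in dcl1-9 than in WT leaves in light and 3 in darkness, with 0 lower. JRG21 (AT3G55970), an oxygenase of jasmonate, averaged 160.0 ± 9.53 in dcl1-9 light and 30.6 ± 5.78 in WT light leaves, and 251 ± 41.6 in dcl1-9 dark and 46.1 ± 12.6 in WT dark leaves (SD, n = 3 each). It stood 2.54 above all probe sets in light (adjusted p = 2.74e-05) and 2.59 in darkness (adjusted p = 2.63e-05), and kept both calls when each array was left out. ILL6, an amidohydrolase that splits the conjugate, stood 1.94 above all probe sets in light (adjusted p = 4.85e-05) and 0.81 in darkness (adjusted p = 0.0252), where the call was lost without any dcl1-9 dark array or without WT dark replicate 1 or 2, with adjusted p of 0.06 to 0.0868. GTR1, a transporter of glucosinolates and jasmonates, differed by -1.81 with darkness in dcl1-9 and -1.59 in the WT, and stood 1.35 above all probe sets in dcl1-9 in light and 1.12 in darkness. ST2A, a sulfotransferase of hydroxyjasmonate, rose in darkness in both genotypes.

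Of 19 other signaling genes, 3 rose and 2 fell in dcl1-9 and 2 rose and 2 fell in WT leaves in darkness. These are 15.8% and 10.5% of the list in dcl1-9 and 10.5% each way in the WT, near the shares of all probe sets. JAM1, a bHLH factor that competes with the MYC proteins, averaged 39.2 ± 5.30 in dcl1-9 dark and 67.7 ± 11.6 in dcl1-9 light leaves, and 15.6 ± 2.99 in WT dark and 32.8 ± 7.56 in WT light leaves (SD, n = 3 each). It was lower in darkness and higher in dcl1-9 in all the comparisons, by 1.197 relative to all probe sets in light (adjusted p = 0.0104) and 1.46 in darkness (adjusted p = 0.00322). The light call was lost without dcl1-9 light replicate 2 or WT light replicate 3 (adjusted p = 0.0538 to 0.0548), and the dark response in dcl1-9 without dcl1-9 dark replicate 3 or dcl1-9 light replicate 2 (adjusted p = 0.0755 to 0.0772). JAM2, its relative, rose by 1.00 in dcl1-9 and 1.39 in the WT in darkness. MED25, a Mediator subunit that binds MYC2, stood 1.23 above all probe sets in dcl1-9 in light and 1.13 in darkness, and the dark call was lost without dcl1-9 dark replicate 1 (adjusted p = 0.0629).

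Of 20 other output genes, 6 fell and 3 rose in dcl1-9 and 5 fell and 2 rose in WT leaves in darkness. CLH1, a chlorophyllase induced by jasmonate, averaged 24.5 ± 3.91 in dcl1-9 dark and 717 ± 175 in dcl1-9 light leaves, and 22.8 ± 2.03 in WT dark and 651 ± 151 in WT light leaves (SD, n = 3 each), with differences of -4.85 and -4.81. ARGAH2, an arginase, differed by -3.92 in dcl1-9 and -3.09 in the WT, and TAT3, a tyrosine aminotransferase, by -4.10 and -3.48. ANAC055, a NAC factor downstream of MYC2, rose by 2.53 in the WT in darkness (adjusted p = 3.89e-05). Between genotypes 5 were higher in dcl1-9 in light and 3 in darkness, with 0 lower. NATA1, an ornithine acetyltransferase, averaged 328 ± 31.9 in dcl1-9 light and 46.4 ± 39.4 in WT light leaves, and 56.2 ± 17.4 in dcl1-9 dark and 12.9 ± 5.95 in WT dark leaves (SD, n = 3 each), 3.27 and 2.298 relative to all probe sets in light and in darkness (adjusted p = 0.00153 and 0.0116). Its dark call was lost without dcl1-9 dark replicate 1 or 2 or WT dark replicate 3, with adjusted p of 0.0555 to 0.0636. RNS1, a wound-induced ribonuclease, stood 1.85 above all probe sets in dcl1-9 dark leaves (adjusted p = 0.000279).

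TCP factors targeted by miR319 bind the LOX2 promoter and were read beside LOX2 for that reason. TCP2, TCP3 and TCP4 fell with LOX2 in darkness, with differences of -1.07, -0.83 and -0.55 in dcl1-9 and -1.61, -0.92 and -1.23 in the WT (the TCP4 call in dcl1-9 was lost without dcl1-9 dark replicate 2 or dcl1-9 light replicate 1, adjusted p = 0.0594 to 0.074), while TCP10 and TCP24 did not pass the test. In light, where LOX2 averaged 3166 ± 247 in dcl1-9 and 1393 ± 287 in WT leaves, 0 of the 5 passed between the genotypes by limma, none of them with an unadjusted p under 0.05. In darkness TCP2 averaged 253 ± 26.2 in dcl1-9 and 169.6 ± 13.4 in WT leaves, and TCP4 averaged 91.0 ± 3.53 in dcl1-9 and 63.1 ± 9.60 in WT leaves (SD, n = 3 each), 0.70 and 0.66 relative to all probe sets (adjusted p = 0.0278 and 0.0461). TCP2 lost its call without dcl1-9 dark replicate 1 or 2 or WT dark replicate 1 or 3, and TCP4 without any 1 of 8 arrays (every dcl1-9 dark array, dcl1-9 light replicate 2 or 3, WT dark replicate 1 or 2, and WT light replicate 1), with adjusted p of 0.0531 to 0.158. The part of the TCP genes in the LOX2 values was not tested.

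Markers of other cells moved with some of these comparisons. PI rose by 3.05 in WT dark against WT light leaves (adjusted p = 1.09e-05), while the other flower markers, AG and AP1, did not pass the test there. The 3 flower markers summed to 30.5 to 35.5 in dcl1-9 dark, 24.4 to 35.4 in dcl1-9 light, 59.4 to 120 in WT dark and 30.1 to 36.9 in WT light leaves. The 3 guard cell markers summed to 292 to 511 in dcl1-9 light and 163 to 307 in WT light leaves, and to 238 to 320 in dcl1-9 dark and 165 to 238 in WT dark leaves. They did not move together. With darkness in the WT, KAT1 fell (limma adjusted p = 0.0175), while FAMA (adjusted p = 0.0349) and MYB60 (by 1.02) rose. Between the genotypes MYB60 alone of them passed, in light, higher in dcl1-9 by 0.87 unshifted (adjusted p = 0.0284). These calls, other than the rise of MYB60 in the WT, were lost without some arrays. The phloem marker SUC2 read 149.8 to 371 in dcl1-9 light and 135 to 231 in WT light leaves, and 189 to 286 in dcl1-9 dark and 247 to 316 in WT dark leaves. The part of these cells in the jasmonate results was not tested.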

How the data were processed

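The authors' deposited intensities were used, for 27827 probe sets on 12 arrays. For these linear intensities the authors checked the scans in Affymetrix Expression Console (version not given in the sources used here) and used dChip to normalize each array by an invariant set against the array of median intensity, with a perfect-match model and the Brainarray grouping of version 15. A deposited table of the authors' own comparisons, with group means, standard errors and fold-changes with bounds, was not used, and no column of sample values had to be set aside (0). Genes were matched by locus. RefSeq (TAIR10.1) gave 33 of the 35 members by symbol and 2 by synonym.

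Values under 1 were set to 1 (no member had one) and log2 was taken. Background correction and probe summaries could not be redone. With R 4.3.3, limma 3.58.1 (statmod 1.5.0) fitted the 4 groups to all arrays without a filter, with variances following intensity and 8 residual degrees of freedom. All probe sets entered the Benjamini-Hochberg adjustment, with 0.05 as threshold. Dark was set against light within each genotype, dcl1-9 against WT within each treatment, and the 2 dark responses against each other, 5 contrasts in all. The fit was tested on simulated data drawn independently for each array, which does not cover any spread shared by same-numbered arrays. Figures were drawn with matplotlib 3.10.9. The 3 arrays per group limit the precision, and the labels name no strip or scan, so these were not tested as batches. No 2 arrays held identical values, and within groups the arrays correlated at 0.95 to 0.98.

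The members and lists were chosen with earlier results of these data known. All members are named, with each array's value for JAZ genes and for members past a test by at least 1 on the log2 scale, and up to 4 genes per contrast from the 4 other lists with the largest difference past the test, of which not all are named. Alternatives were log2(value + 16), quantile normalization, median centring, a mean of at least 20, variances without the trend, the compared groups alone, a replicate block, the methods' 90% lower bound of the fold-change above 1.2 (recomputed from the 3 arrays), and each array left out.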

Additional observations from a re-analysis of the deposited data

Results flagged for a closer look

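ST2A, the sulfotransferase of hydroxyjasmonate, was the gene of the jasmonate lists whose dark response differed between the genotypes by the test of that difference, at -1.04 (SE 0.17, limma adjusted p = 0.0291). It read 1379, 1770.4 and 1523 in dcl1-9 dark leaves, against 771, 876 and 797 in dcl1-9 light leaves, and 1353, 1418 and 1205 in WT dark leaves, against 338, 339 and 339 in WT light leaves. No arrays overlapped between dark and light. The call was lost with variances that did not follow intensity, and without any 1 of 8 arrays, with adjusted p of 0.065 to 0.122 and differences of -1.05 to -0.95 for the arrays. These were dcl1-9 dark replicates 1 and 3, dcl1-9 light replicates 2 and 3, WT dark replicates 1 and 2, and WT light replicates 1 and 3.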

How the results depend on the processing

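Of 59 comparisons in which one of the 35 genes passed the test, 39 kept the call under every alternative run, 20 lost it under at least 1, and 0 reversed. The counts of genes past the test moved by over 1.5 times between genotypes only. With 1 array left out the count of genes higher in dcl1-9 ranged from 4 to 17 in light (11 with all arrays) and from 3 to 12 in darkness (9 with all arrays). Replicate numbers are shared between groups, but no label says whether a number marks a shared day or batch. Of 18 same-numbered pairs of arrays in different groups, 14 had deviations from the group means that correlated above 0.1 (0.03 to 0.34, against -0.32 to 0.12 for other numbers), and 9 of 12 arrays correlated best with their own number, a hint from the data and not the design. With the replicate number as a block the count was 19 in light and 16 in darkness, and 17 of 175 single results gained the call and 0 lost it. The genes gained were LOX2, LOX4, OPCL1, ACX1, JAZ2, JAZ5, JAZ11 and CORI3 between genotypes in light, LOX3, LOX6, AOS, AOC4, ACX1, JAZ8 and VSP1 between genotypes in darkness, and JAZ1 and JAZ2 in the dark response of the WT. Over all probe sets the block gave 5066 calls in light, 4338 in darkness and 77 for the difference of the responses, where 2573, 2077 and 29 were called without it. The lower bound gave 4506 and 4379 between genotypes in light and in darkness, the compared groups alone 1368 in light, and log2(value + 16) and variances without the trend 66 and 15 for the difference of the responses. Leaving out an array gave 775 to 2995 calls in light, 441 to 2518 in darkness and 8 to 39 for the difference. Apart from arrays left out, the calls lost were MYC4, CYP94C1 and JAZ5 in the dark response of the WT, JAZ2 in that of dcl1-9, LOX3, JAR1, CYP94B3 and JAZ9 between genotypes in light, and CORI3 between genotypes in darkness, each under at least 1 of log2(value + 16), quantile normalization, variances without the trend, the compared groups alone or the lower bound. Apart from arrays left out and the block, the calls gained between genotypes in light were LOX2, ACX1, JAZ5, JAZ8, JAZ11 and CORI3. In darkness they were LOX3, LOX6, AOC4, ACX1 and JAZ8. Each was gained under at least 1 of quantile normalization, median centring, a mean of at least 20, the compared groups alone or the lower bound. The filter on a mean of at least 20 left out JMT, JAZ8 and VSP2. The lower bound and the fit of the compared groups alone gave no value for the difference of the responses. Of 94 calls in the other lists and markers, 62 kept the call under every alternative and 32 lost it under at least 1. With log2(value + 16) some differences of low genes shrank by over 1.5 times and remained past the test. Among the differences given with a value outside the 35 genes, JAM2 stood at 0.83, ANAC055 at 1.62, ARGAH2 at -2.05, PI at 1.74 and MYB60 at 0.54 in the dark response of the WT. Between genotypes MYB60 stood at 0.44 in light, and JAM1 at 0.81 and NATA1 at 1.31 in darkness (all unshifted).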
